A study of Mus musculus with 24 samples.

Results

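The genes described here were 9 that are used to recognise long-term blood stem cells in mice, namely Procr, Slamf1, Hlf, Fgd5, Ctnnal1, Pdzk1ip1, Ly6a, Tek and Vwf. They were taken by symbol from a gene count table of 55487 Ensembl genes, and all 9 passed the filter on low counts. The data were bulk RNA-seq of 24 libraries in 6 groups of 4. The sorted cells are LSK in the labels (lineage-negative, Sca-1+, KIT+ cells, the bone marrow fraction that holds blood stem cells and multipotent progenitors), while the design text names lineage-negative KIT+ progenitors. Library totals ran from 31233688 to 89774511 counts.

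The model was a Tet-off transgene for human MLL::ENL (abbreviated ME), a fusion of the KMT2A and MLLT1 genes found in infant and childhood leukaemia. In a Tet-off system the transgene is silent while doxycycline is given and is switched on when it is withdrawn. The youngest cells were sorted from liver at postnatal day 0 (P0), either from wild types (P0 WT) or after embryonic induction of ME at E10.5 (P0 ME). The older cells were sorted from bone marrow at day 28 (P28). They came from wild types (P28 WT), from animals in which ME was switched on at E10.5 (E10.5-induced ME) and from animals in which it was switched on at P0 (P0-induced ME). The last P28 bone marrow group, also induced at E10.5, carries the words RLT Vav Txp, which the labels do not expand, and is called by them here. The labels give no strain, no sex, no promoter that drives the transactivator, and no statement on whether animals were pooled. The design text calls the 4 libraries of a group biological replicates. If some came from 1 animal, the p-values measure only the spread between libraries. Each tissue was taken at 1 age, so tissue and age cannot be told apart. The table has no entry for human MLL::ENL, whose level was not analysed here.

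Blood stem cells sit at the top of the blood hierarchy and are rare, so they are isolated by combinations of surface proteins rather than by a single one. PROCR (the endothelial protein C receptor), SLAMF1 (CD150), SCA-1 (the product of Ly6a) and TIE2 (the product of Tek) are surface proteins of this kind. HLF is a transcription factor whose expression among blood cells is closely restricted to stem cells and early progenitors. Fgd5, Ctnnal1 and Pdzk1ip1 have served for stem cell reporter mice, and Vwf marks a platelet-biased fraction of stem cells. In bulk libraries, fewer cells of a type and less RNA per cell cannot be told apart.

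All 9 genes are protein-coding in GENCODE M21 (GRCm38). Procr lies on chromosome 2 at 155751117 to 155755471, Slamf1 on chromosome 1 at 171767127 to 171801184, Hlf on chromosome 11 at 90336536 to 90390895 and Ly6a on chromosome 15 at 74994877 to 74998031. Ctnnal1 (56810935 to 56865188), Tek (94739289 to 94874976) and Pdzk1ip1 (115088708 to 115093899) are on chromosome 4. Fgd5 (91978878 to 92076004) and Vwf (125546774 to 125686679) are on chromosome 6. The span of Fgd5 overlaps the genes 4930466I24Rik and Gm44095, but no exon of it overlaps another gene. Ly6a belongs to a cluster of related LY6 genes, and how reads matching several genes were counted is not given in the sources used here.

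Of the 9 genes, 7 had an entry in the RefSeq promoter table (GRCm38.p6), and 4 promoters are shown because the results turn on these genes. Procr and Pdzk1ip1 fell together in E10.5-induced ME at P28, while Hlf fell and Slamf1 rose in the RLT Vav Txp group. The printed bases end before the start in both RefSeq and GENCODE. They are chr2:155750967-155751116 for Procr (+ strand), chr4:115088458-115088707 for Pdzk1ip1 (+), chr11:90390918-90391167 for Hlf (-) and chr1:171766882-171767126 for Slamf1 (+). Capitals mark the letters of 5 kinds of binding motif searched on both strands.
Procr: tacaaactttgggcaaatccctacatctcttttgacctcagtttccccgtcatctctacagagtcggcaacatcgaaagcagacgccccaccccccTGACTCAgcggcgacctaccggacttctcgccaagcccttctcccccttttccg
Pdzk1ip1: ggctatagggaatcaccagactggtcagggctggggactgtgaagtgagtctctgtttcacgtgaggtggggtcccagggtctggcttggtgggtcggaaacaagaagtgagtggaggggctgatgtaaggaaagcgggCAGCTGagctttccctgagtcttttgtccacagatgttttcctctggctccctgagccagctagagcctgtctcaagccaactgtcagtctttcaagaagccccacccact
Hlf: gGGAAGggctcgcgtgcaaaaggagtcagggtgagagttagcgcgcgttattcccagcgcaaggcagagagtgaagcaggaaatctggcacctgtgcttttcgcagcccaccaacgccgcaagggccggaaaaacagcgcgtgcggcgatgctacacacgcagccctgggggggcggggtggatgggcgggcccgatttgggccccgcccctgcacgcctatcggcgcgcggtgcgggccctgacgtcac
Slamf1: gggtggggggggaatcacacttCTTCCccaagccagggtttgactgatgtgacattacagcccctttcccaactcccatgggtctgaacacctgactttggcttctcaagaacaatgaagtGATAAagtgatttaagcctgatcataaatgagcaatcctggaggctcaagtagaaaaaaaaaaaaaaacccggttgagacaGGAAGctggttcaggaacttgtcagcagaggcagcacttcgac
The motifs were GATAA for GATA factors, GGAAG for ETS factors, CAGCTG for an E-box, TTACGTAA and TTATGTAA for PAR bZIP factors such as HLF itself, and TGACTCA for AP-1. No printed match overlapped another. The 250 bases upstream held GATAA in 22.6% of 32851 promoters, GGAAG in 64.1%, CAGCTG in 13.0%, TGACTCA in 4.46%, TTACGTAA in 0.113% and TTATGTAA in 0.819%. The printed Procr bases held TGACTCA and those of Pdzk1ip1 held CAGCTG, so the 2 promoters shared no printed match. The full 250-base window of Procr also held 1 CAGCTG and 1 GGAAG. The Hlf bases held 1 match to the ETS motif, and those of Slamf1 held 2 together with 1 match to the GATA motif. Neither PAR bZIP motif was in any of the 7 promoters. A match is a description of letters, not a binding site.

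The genes differed widely in level. Per kilobase of exon, the mean level in P28 WT was 245.9 CPM per kb for Ly6a, 87.4 for Hlf, 48.3 for Pdzk1ip1 and 42.5 for Procr (CPM, read counts scaled to a common library size by TMM factors). It was 4.69 CPM per kb for Fgd5, 4.60 for Tek, 2.19 for Ctnnal1, 0.942 for Slamf1 and 0.577 for Vwf. The lowest read number behind any value of the 9 genes in any library was 69. Kit, the other gene of the sort, was present in every library, between 169.5 CPM in P0 WT replicate 4 and 1451 CPM in P0 WT replicate 1. Ly6a encodes the SCA-1 protein on which LSK cells are gated, so its level comes from cells already chosen for that protein.

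**Figure D1:**
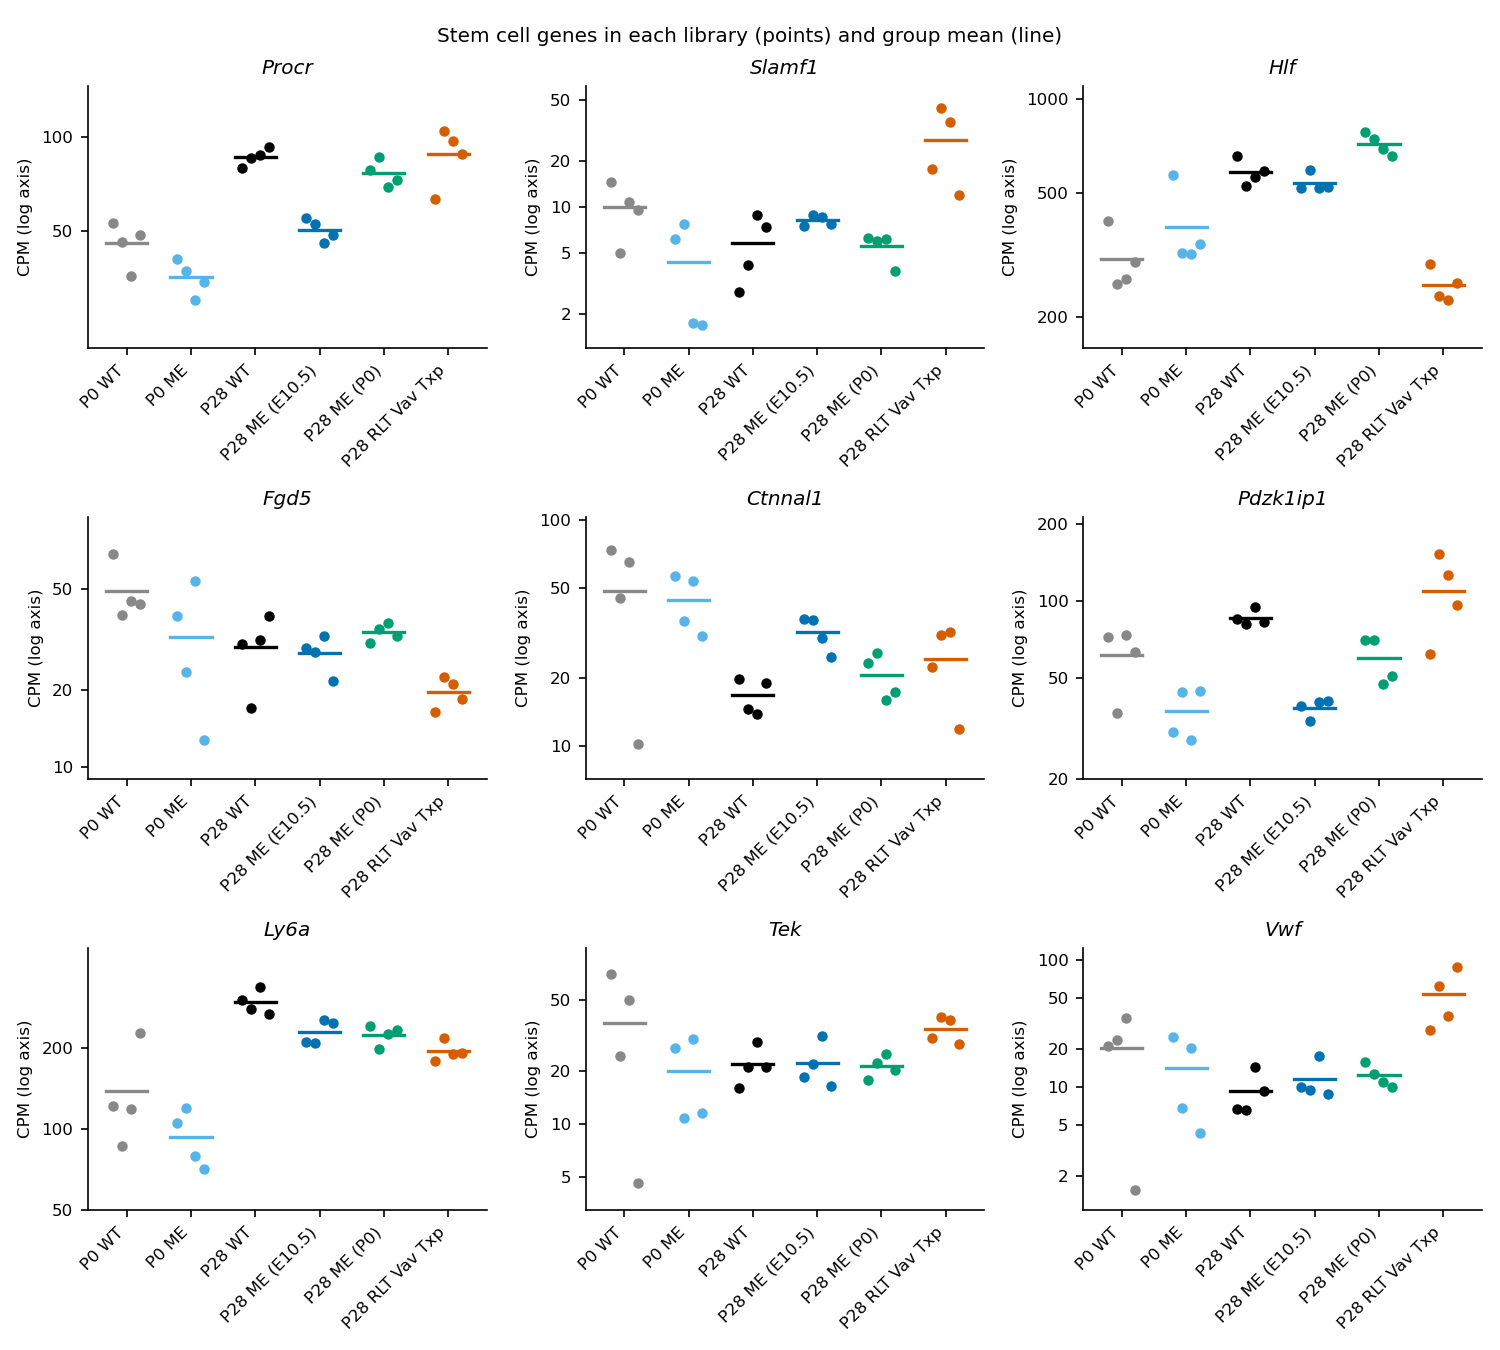
Level of each of the 9 genes (CPM, log axis) in every library, by group. Points are libraries and lines are means of 4 libraries. Procr and Pdzk1ip1 lie lower in E10.5-induced ME than in any P28 WT library, the RLT Vav Txp group has the lowest mean of Hlf and the highest means of Slamf1 and Vwf, and P0 WT spreads widely for Ctnnal1, Tek and Vwf.

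Genes of other cell types were counted beside these, since a sort can hold them. The summed level of 9 macrophage genes was 1212 to 1826 CPM in 6 of the 8 P0 libraries and only 127 and 121 CPM in replicate 1 of P0 WT and of P0 ME. It was 39.6 to 89.5 CPM over P28 WT, E10.5-induced ME and P0-induced ME, and 565 to 2541 CPM in the RLT Vav Txp group. The sum of 8 erythroid genes followed the same split at P0, with 470 and 225 CPM in replicate 1 of WT and of ME. It was 7152 to 8883 CPM in the other P0 WT libraries and 2931 to 7344 CPM in the other P0 ME libraries. At P28 it was 589.4 to 1092 CPM in the RLT Vav Txp group and 121.5 to 536.2 CPM in the other groups. The sum of 8 mast cell and basophil genes was 923.3 to 10690 CPM in P0 WT and 47.7 to 815.4 CPM in P0 ME, with every WT library above every ME library. It was 78.9 to 195.9 CPM in the RLT Vav Txp group and 34.2 CPM at most in the other P28 groups. Hepatocyte genes summed to 209.0 to 717.8 CPM at P0, 278.6 to 718.3 CPM in the RLT Vav Txp group and 174.0 to 255.6 CPM in the other P28 groups, and T and B lymphoid genes to 29.6 to 287.1, 19.2 to 39.8 and 4.71 to 15.4 CPM. Trf made up most of the hepatocyte sum, with means of 323.5 CPM in P0 WT and 501.2 CPM in RLT Vav Txp. Afp had means of 24.47 and 29.96 CPM in these groups. Alb, Fgb and Ttr had means of 33.15, 10.85 and 6.37 CPM in P0 WT but 1.32, 0 and 0.00344 CPM in RLT Vav Txp. The part of these other cell types in the results below was not tested except where a value is given.

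**Figure D2:**
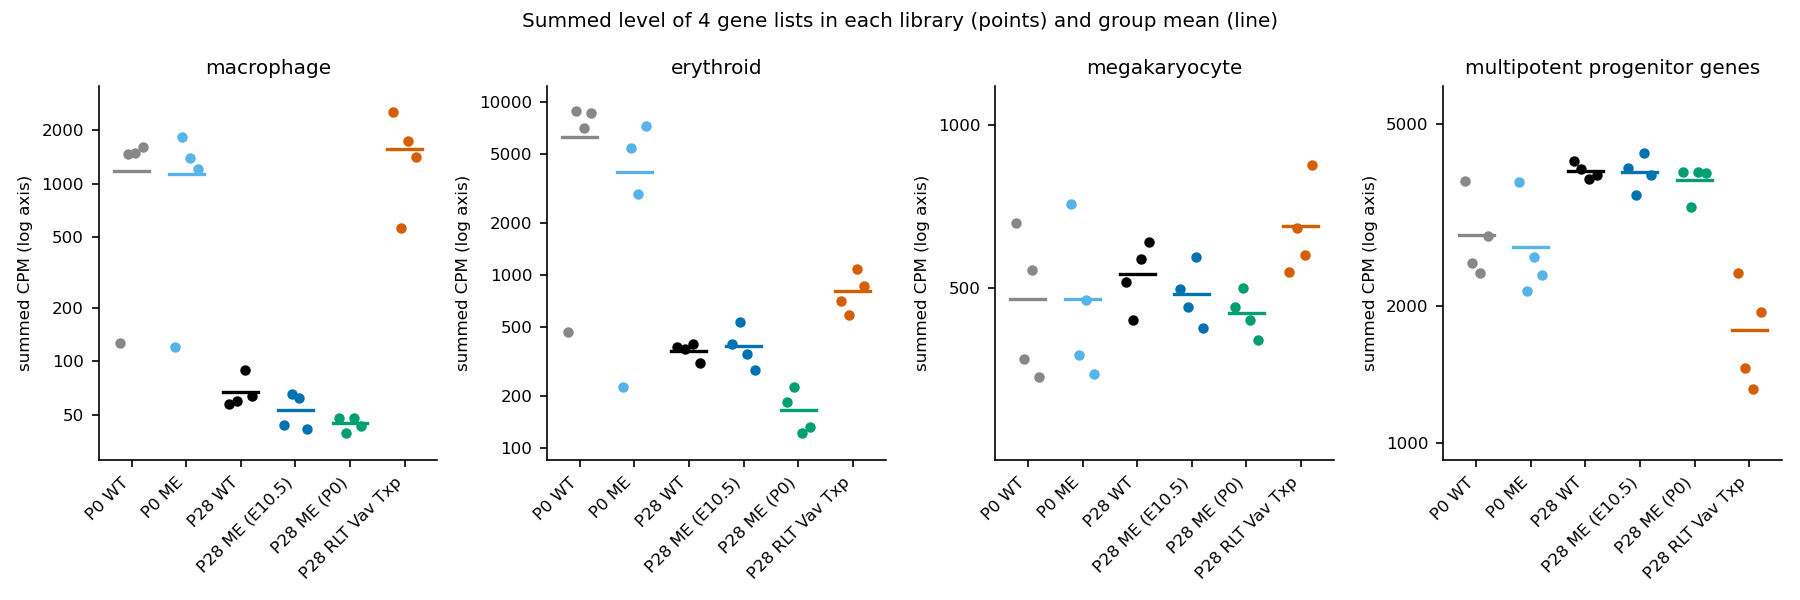
Summed CPM (log axis) of 9 macrophage, 8 erythroid, 9 megakaryocyte and 10 multipotent progenitor genes in every library. Points are libraries and lines group means; macrophage genes are low in 3 P28 groups and in replicate 1 of both P0 groups, and multipotent progenitor genes have their lowest mean in the RLT Vav Txp group.

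At P28, induction of ME at E10.5 went with lower Procr and Pdzk1ip1, and none of the 9 genes was called higher by edgeR on all libraries. Procr, the surface receptor that binds protein C, was at 79.5, 85.6, 87.3 and 92.8 CPM in P28 WT and at 54.8, 52.4, 45.6 and 48.4 CPM in E10.5-induced ME. Every ME library was below every WT library, and the group means were 86.3 ± 5.44 and 50.3 ± 4.10 CPM (SD, n = 4). Procr fell by 0.78 on the log2 scale (SE 0.156, adjusted p = 0.00363, edgeR quasi-likelihood test with Benjamini-Hochberg adjustment over 23059 genes).

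Pdzk1ip1, which encodes a small membrane protein also called MAP17, was at 85.2, 80.9, 94.7 and 82.4 CPM in P28 WT and at 38.5, 33.7, 40.0 and 40.3 CPM in E10.5-induced ME. The groups were again fully apart, with means of 85.8 ± 6.22 and 38.1 ± 3.06 CPM (SD, n = 4). It fell by 1.17 on the log2 scale (edgeR adjusted p = 0.0036, SE 0.235), which is 2.25-fold lower. Both falls held with each of the 8 libraries left out in turn.

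The other 7 genes were not called in this comparison. Ctnnal1, an alpha-catenin relative, had an estimated log2 fold change of 0.92 (edgeR adjusted p = 0.11, SE 0.378) with WT libraries at 13.9 to 19.7 CPM and ME libraries at 24.6 to 36.3 CPM. Ly6a had one of -0.36 (edgeR adjusted p = 0.262, SE 0.205) with WT libraries at 266.8 to 336.9 CPM and ME libraries at 209.7 to 253.4 CPM. Neither gene's groups overlapped, and both passed when only the 2 groups compared were fitted with edgeR (adjusted p = 0.00228 for Ctnnal1 and 0.00377 for Ly6a) and in limma (adjusted p = 0.0127 and 0.014). Slamf1 had a log2 fold change of 0.50 and Vwf of 0.31, both with overlapping groups, and Hlf, Fgd5 and Tek were within 0.3 of 0. The type I interferon genes, which respond to a signal that also raises Ly6a, summed to 294 to 406.5 CPM in P28 WT and 324.8 to 594.6 CPM in E10.5-induced ME. Against these 2 of 9, 12.3% of all 23059 genes were called, and groups did not overlap for 28.2% of all genes and for 4 of the 9. The median log2 fold change was -0.08 over the 9 genes and -0.10 over all genes.

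Other stem cell genes were mixed in the same comparison, with 3 of 20 higher and 2 lower. Mecom, a stem cell transcription factor, rose from 105.3 ± 12.5 to 299.5 ± 25.9 CPM (SD, n = 4; log2 fold change 1.51, edgeR adjusted p = 0.000967). Gata2 and Gfi1b, also transcription factors of blood progenitors, rose by 0.95 and 1.24 on the log2 scale (edgeR adjusted p = 0.00934 and 0.012). Sult1a1, a sulfotransferase, fell by 1.80 (edgeR adjusted p = 0.0173). Its level was low and its groups overlapped, at 0.774 to 8.58 CPM in P28 WT and 0.847 to 1.38 CPM in E10.5-induced ME. Tie1, the co-receptor of TIE2, fell by 0.78 on the log2 scale (edgeR adjusted p = 0.0256), while Tek itself had 21.7 ± 5.44 CPM in WT and 22.0 ± 6.65 CPM in ME (SD, n = 4). Among the multipotent progenitor genes, Ikzf1 rose and Cd53 fell. Among 32 tested partners and relatives of the 9 genes, 3 rose and 1, Tie1, fell. Those that rose were Ctnna1, the alpha-catenin to which Ctnnal1 is related, by 1.22, Nfil3, a bZIP repressor that binds the same DNA sites as HLF, by 1.54, and Stil, a chromosome neighbour of Pdzk1ip1, by 1.08 on the log2 scale (edgeR adjusted p = 0.003, 0.0119 and 0.0116).

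Induction of ME at P0 gave no called change among the 9 genes at P28. Procr was at 78.5, 86.4, 68.9 and 72.5 CPM in P0-induced ME, overlapping P28 WT. Pdzk1ip1 was at 70.1, 70.3, 47.4 and 50.6 CPM, all below the WT libraries, with a log2 fold change of -0.53 (edgeR adjusted p = 0.2, SE 0.232). Hlf, at 787.8, 744.0, 690.4 and 656.7 CPM against 655.6, 525.8, 564.6 and 590.8 CPM in P28 WT, had one of 0.30 (edgeR adjusted p = 0.335, SE 0.172).

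In that comparison Ly6a had an estimated log2 fold change of -0.40 (edgeR adjusted p = 0.274, SE 0.205) and was 197.7 to 241.2 CPM in P0-induced ME. Vwf had one of 0.41 with overlapping groups (edgeR adjusted p = 0.762), and Procr, Slamf1, Fgd5, Ctnnal1 and Tek were within 0.3 of 0. Pdzk1ip1, Hlf and Ly6a were the 3 genes whose groups did not overlap. The background was 1.57% of all genes called and 24.8% of all genes not overlapping. In edgeR 1 of the 9 genes had an unadjusted p under 0.05, against 4648 of all 23059 genes. DESeq2 called 0 of the 9 and limma 3, namely Hlf, Pdzk1ip1 and Ly6a (adjusted p = 0.0322, 0.0417 and 0.0132). With only these 2 groups fitted by edgeR, Pdzk1ip1 and Ly6a passed (adjusted p = 0.00499 and 0.00194). Of the other stem cell genes 1 of 20, Mecom, was higher (log2 fold change 1.06, edgeR adjusted p = 0.0375).

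Set directly against each other, the ME groups induced at P0 and at E10.5 gave 0 of 9 genes called by edgeR, with 0.0477% of all genes called. Procr had a log2 fold change of 0.61 (SE 0.156, adjusted p = 0.301) and Pdzk1ip1 one of 0.65 (SE 0.232, adjusted p = 0.935), both higher in every P0-induced library than in every E10.5-induced one. Hlf (0.42) was higher in every P0-induced library and Slamf1 (-0.56) lower. Groups did not overlap for these 4 of 9 genes and for 11.8% of all genes. In edgeR 3 of the 9 had an unadjusted p under 0.05, against 998 of all 23059 genes. The share of 0.0477% is that of edgeR on all libraries, and the shares of all genes called in the fits that follow are not given. Procr passed in DESeq2 (adjusted p = 0.0241) and in limma (adjusted p = 0.000145), and in an edgeR fit of these 2 groups alone (adjusted p = 0.0013). Hlf and Pdzk1ip1 passed in limma (adjusted p = 0.000999 and 0.00738) and in that 2-group edgeR fit (adjusted p = 0.00346 and 0.00923), and Ctnnal1 in limma alone (adjusted p = 0.0189). Ctnnal1 had a log2 fold change of -0.63, and Fgd5, Ly6a, Tek and Vwf were within 0.3 of 0.

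**Figure D3:**
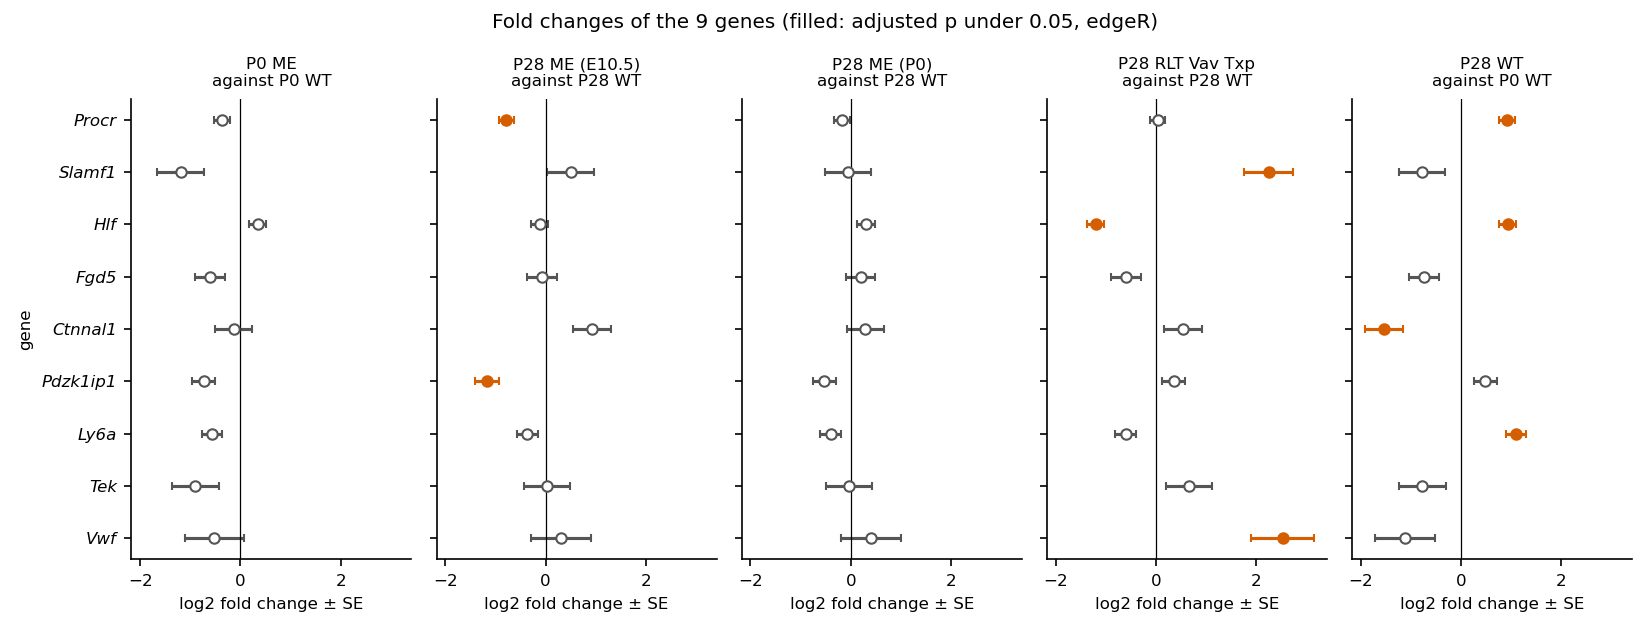
Log2 fold change of each of the 9 genes with its SE (horizontal bars) in 5 comparisons. Filled points passed an adjusted p of 0.05; Procr and Pdzk1ip1 fell in E10.5-induced ME at P28, and Slamf1 and Vwf rose and Hlf fell in the RLT Vav Txp group.

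In the RLT Vav Txp group, Slamf1 and Vwf were higher and Hlf was lower than in P28 WT. Slamf1, a self-binding receptor of the SLAM family, was at 2.8, 4.2, 8.8 and 7.4 CPM in P28 WT and at 17.9, 44.4, 36.2 and 11.9 CPM in the RLT Vav Txp group. All 4 RLT Vav Txp libraries were above the highest WT library, and they differed from each other by more than the WT ones did in CPM. Slamf1 rose by 2.25 on the log2 scale (edgeR adjusted p = 0.00573, SE 0.484), or 4.75-fold.

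Vwf, the platelet adhesion glycoprotein, was at 6.7, 6.6, 14.5 and 9.4 CPM in P28 WT and at 27.8, 62.1, 36.1 and 88.3 CPM in the RLT Vav Txp group. The groups did not overlap, and Vwf rose by 2.53 on the log2 scale (edgeR adjusted p = 0.0193, SE 0.625), or 5.76-fold. This call was lost when P28 WT replicate 1, 2 or 4 or RLT Vav Txp replicate 4 was left out (log2 fold changes of 2.41, 2.40, 2.53 and 2.16, edgeR adjusted p = 0.0815, 0.0805, 0.064 and 0.0711), and with no filter on low counts (adjusted p = 0.0755). Megakaryocytes also make Vwf. Of their 9 marker genes 7 were tested, and Pf4 and Itga2b rose, from 16.6 ± 3.58 to 150.2 ± 64.9 CPM and from 14.9 ± 4.45 to 77.9 ± 18.4 CPM (SD, n = 4; edgeR adjusted p = 0.000177 and 0.000412). Gp1bb was at 0 in 17 of the 24 libraries and Gp6 in 15, and the 9 markers summed to 436.7 to 608.9 CPM in P28 WT and 535.8 to 845.4 CPM in the RLT Vav Txp group. The library with the highest Vwf, replicate 4, also had the highest sum, and the part of megakaryocytes in the rise of Vwf was not tested.

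Hlf was at 297.3, 233.7, 227.5 and 258.0 CPM in the RLT Vav Txp group, lower than in every other P28 library. The means were 254.1 ± 31.7 CPM against 584.2 ± 54.6 CPM in P28 WT (SD, n = 4), and it fell by 1.20 on the log2 scale (edgeR adjusted p = 0.000101, SE 0.174), or 2.3-fold. This fall held with each of the 8 libraries left out.

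The remaining genes of the 9 were not called between the RLT Vav Txp group and P28 WT. Ly6a had an estimated log2 fold change of -0.61 (edgeR adjusted p = 0.107, SE 0.205), with 179.3 to 218.5 CPM against 266.8 to 336.9 CPM and no overlap; the type I interferon genes summed to 167.9 to 278.2 CPM, below the WT range. Fgd5, a guanine nucleotide exchange factor, had one of -0.59, Tek of 0.66, Ctnnal1 of 0.53 and Pdzk1ip1 of 0.35, each with overlapping groups, and Procr was within 0.3 of 0. Ly6a passed in limma, in DESeq2, with plain library totals and in a fit of the 2 groups (adjusted p = 0.0183, 0.0495, 0.0313 and 0.0109). Calls were made for 3 of 9 genes, 2 higher and 1 lower, and for 4.12% of all genes, while groups did not overlap for 4 of 9 and for 11.5% of all genes.

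Macrophage genes moved with this group: 8 of 9 were higher than in P28 WT, and Clec4f was the exception. Within the group the library with the lowest macrophage sum, replicate 2 at 565 CPM, had the highest Slamf1 (44.4 CPM), Procr (104.3 CPM) and Pdzk1ip1 (152.6 CPM), and the one with the highest sum, replicate 1 at 2541 CPM, had the lowest Vwf, Procr and Pdzk1ip1 and the highest Hlf. Replicate 3, with a sum of 1749 CPM, had the next highest Slamf1 (36.2 CPM), Procr (97.5 CPM) and Pdzk1ip1 (126.4 CPM). Replicate 4, with a sum of 1417 CPM, had the lowest Slamf1 (11.9 CPM) and the highest Vwf (88.3 CPM). The part of macrophages in these levels was not tested. Endothelial genes summed to 131.4 to 160.5 CPM against 222.8 to 232.8 CPM in P28 WT, and Egfl7 and Emcn made up most of that sum. These 2 of the 10 genes were called lower and 0 higher. Among the others Stab2 had 2.46 ± 1.32 CPM in P28 WT and 8.63 ± 2.34 CPM in the RLT Vav Txp group, and Kdr 0.772 ± 0.846 and 2.44 ± 0.377 CPM (SD, n = 4), so the members did not share a direction. Cdh5 and Lyve1 were near 0 in both groups, at 0.65 and 0.0388 CPM in P28 WT and 1.08 and 0.00449 CPM in RLT Vav Txp. The part of endothelial cells in the levels of Tek, Procr and Vwf was not tested.

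Genes of multipotent progenitors were lower in the RLT Vav Txp group, with 6 of 10 called lower and 0 higher than in P28 WT, and a median log2 fold change of -0.74 against 0.01 for all genes. Flt3, the cytokine receptor that marks multipotent progenitors, fell by 2.40 on the log2 scale (edgeR adjusted p = 7.22e-05). Cd34 fell by 1.25, from 1237 ± 74.2 to 519.5 ± 172 CPM (SD, n = 4; edgeR adjusted p = 0.000407), Satb1, a chromatin organiser of lymphoid cells, by 2.06 and Notch1 by 1.32 (edgeR adjusted p = 0.00388 and 0.0147). Of the 20 other stem cell genes, 3 were higher and 0 lower, namely Sult1a1, Gata2 and Gfi1b, with log2 fold changes of 3.07, 0.84 and 1.14 (edgeR adjusted p = 0.000416, 0.0326 and 0.035). Among the partners and relatives, F2r, the thrombin receptor that activated protein C on PROCR also cleaves, rose from 53.2 ± 9.60 to 149.3 ± 17.2 CPM (SD, n = 4; log2 fold change 1.49, edgeR adjusted p = 0.000198). Sh2d1b1, an adaptor of SLAM receptors, rose by 3.63 (edgeR adjusted p = 0.0348) from 0.472 ± 0.187 to 5.92 ± 4.12 CPM (SD, n = 4).

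Between the 2 P28 groups induced at E10.5, 5 of the 9 genes differed, against 17.9% of all genes called. This comparison shares the RLT Vav Txp and the E10.5-induced ME libraries with the ones above and is not independent of them. Procr was higher in RLT Vav Txp than in E10.5-induced ME, at 63.3, 104.3, 97.5 and 88.4 CPM, and rose by 0.81 on the log2 scale (edgeR adjusted p = 0.00113, SE 0.156). Pdzk1ip1, at 61.9, 152.6, 126.4 and 96.6 CPM, rose by 1.52 (edgeR adjusted p = 0.000137, SE 0.236), or 2.87-fold. Both genes were thus above every E10.5-induced ME library, and their ranges overlapped those of P28 WT.

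Slamf1 rose by 1.75 (edgeR adjusted p = 0.0133, SE 0.476), Vwf by 2.22 (edgeR adjusted p = 0.0162, SE 0.617), and Hlf fell by 1.09 on the log2 scale (edgeR adjusted p = 0.000179, SE 0.173). The Slamf1 call was lost without RLT Vav Txp replicate 2 (log2 fold change 1.42, edgeR adjusted p = 0.063). The Vwf call was lost without E10.5-induced ME replicate 1, 2 or 4 or RLT Vav Txp replicate 4 (edgeR adjusted p = 0.0584, 0.0564, 0.0508 and 0.0635) and with no filter on low counts (0.0507). Groups did not overlap for 5 of 9 genes and for 25.7% of all genes. Tek (0.64), Fgd5 (-0.51) and Ctnnal1 (-0.39) were not called, and Ly6a was within 0.3 of 0. Of the other stem cell genes 6 of 20 were higher and 2 lower, led by Sult1a1, from 1.12 ± 0.242 to 32.7 ± 9.45 CPM, and Tie1, from 40.04 ± 5.41 to 111.5 ± 18.0 CPM (SD, n = 4; edgeR adjusted p = 2.44e-06 and 0.000154). Mecom, higher in E10.5-induced ME than in WT, was lower in RLT Vav Txp than in E10.5-induced ME by -1.06 on the log2 scale (edgeR adjusted p = 0.00396). Of the 10 multipotent progenitor genes 6 were lower and 1, Cd52, was higher.

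At P0, ME gave no called change among the 9 genes, and the spread was wide. Pdzk1ip1 was at 72.2, 36.5, 73.5 and 63.0 CPM in wild-type cells at P0 and at 30.6, 44.0, 28.5 and 44.3 CPM in P0 ME, with a log2 fold change of -0.74 (edgeR adjusted p = 0.143, SE 0.233). WT replicates 1, 3 and 4 were above all ME libraries and WT replicate 2 was among them. Without replicate 2 the call was made (log2 fold change -0.95, edgeR adjusted p = 0.048). Slamf1 was at 14.6, 5.0, 10.8 and 9.5 CPM in wild-type cells at P0 and at 6.2, 7.8, 1.7 and 1.7 CPM in P0 ME (log2 fold change -1.19, SE 0.47, edgeR adjusted p = 0.242).

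For Procr the P0 values were 52.8, 45.8, 35.6 and 48.3 CPM in WT and 40.6, 37.1, 29.9 and 34.3 CPM in ME (log2 fold change -0.36, SE 0.156, edgeR adjusted p = 0.286). Ly6a had a log2 fold change of -0.57, Fgd5 of -0.60, Tek of -0.90 and Vwf of -0.52, Hlf had one of 0.34, and Ctnnal1 was within 0.3 of 0. None of the 9 genes had groups that did not overlap, against 3.74% of all genes, and 0.642% of all genes were called. Of the 9 genes 4 had an unadjusted p under 0.05 in edgeR, against 3251 of all 23059 genes. Limma and DESeq2 called 0 of the 9. The median log2 fold change of the 9 was -0.57, and that of all genes -0.01. The summed mast cell and basophil genes were lower in every ME library than in every WT library at P0, though 0 of the 8 were called in either direction. Gzmb alone had the higher mean in ME, at 2.97 CPM against 0.115 CPM in WT. The part of mast cells and basophils in the values of the 9 genes was not tested. In the other stem cell list Mecom rose by 1.62 and Esam, an endothelial and stem cell adhesion protein, fell by 1.71 on the log2 scale (edgeR adjusted p = 0.000993 and 0.00226).

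The ME effect at P28 (E10.5 induction) was compared with that at P0. None of the 9 genes passed this test, for which 0.72% of all genes were called. In edgeR 1 of the 9 had an unadjusted p under 0.05, against 3815 of all 23059 genes. DESeq2 and limma also called 0 of the 9. Among the 9, the gene with the low unadjusted p was Slamf1, with a difference of 1.69 on the log2 scale (edgeR adjusted p = 0.197, SE 0.661). It was 0.92 for Tek, 0.83 for Vwf, 0.53 for Fgd5 and -0.46 for Hlf, and within 0.3 of 0 for Ly6a. The difference was -0.42 for Procr and -0.44 for Pdzk1ip1, so the ME effect on these 2 genes at P28 was not shown to differ from that at P0. Ctnnal1 had a difference of 1.06 (edgeR adjusted p = 0.319, SE 0.53), which passed without P0 WT replicate 4 (1.43, edgeR adjusted p = 0.023).

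In wild-type cells, P28 bone marrow had more Procr, Hlf and Ly6a and less Ctnnal1 than P0 liver. Ly6a was at 301.2, 280.3, 336.9 and 266.8 CPM in P28 WT and at 122.2, 86.4, 118.8 and 227.9 CPM in P0 WT, and rose by 1.09 on the log2 scale (edgeR adjusted p = 0.00151, SE 0.207). Procr rose by 0.92 (edgeR adjusted p = 0.000539, SE 0.157) from 45.6 ± 7.26 CPM (SD, n = 4). Hlf was at 408.6, 255.8, 264.7 and 300.8 CPM in P0 WT and rose by 0.93 (edgeR adjusted p = 0.00135, SE 0.173).

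These 3 genes had P28 libraries all above the P0 ones. Ctnnal1 was at 73.8, 45.1, 65.2 and 10.2 CPM in P0 WT and at 19.7, 14.5, 13.9 and 18.9 CPM in P28 WT, so 1 P0 library lay under all P28 ones. It fell by 1.53 on the log2 scale (edgeR adjusted p = 0.0131, SE 0.383) and did not pass when only the 2 wild-type groups were fitted (edgeR adjusted p = 0.132). That library, P0 WT replicate 4, was also the lowest of its group for Kit (169.5 CPM), Tek (4.68 CPM) and Vwf (1.54 CPM) and the highest for Ly6a. Without it Tek was called lower at P28 (log2 fold change -1.15, edgeR adjusted p = 0.0313). With all libraries Tek had a log2 fold change of -0.77, Vwf of -1.11, Slamf1 of -0.78, Fgd5 of -0.74 and Pdzk1ip1 of 0.49, none called. The share of all genes called was 7.68%, beside 4 of the 9, and groups did not overlap for 9.27% of all genes and 5 of the 9, these being Procr, Hlf, Ly6a, Fgd5 and Pdzk1ip1. Lower at P28 were also 8 of 9 macrophage, 6 of 9 hepatocyte, 6 of 8 erythroid, 5 of 8 mast cell and basophil and 4 of 5 tested T and B lymphoid genes, and their part in these differences was not tested. Without replicate 1 of both P0 groups, the libraries low in macrophage and erythroid counts, the 4 calls were again made. That fit kept the P0 libraries with more of these counts, so it does not test their part. P0 WT replicate 1 was also the highest of its group for mast cell and basophil genes (10690 CPM).

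In ME cells induced at E10.5, Ly6a and Procr were higher at P28 than at P0. Ly6a was at 210.4, 209.7, 253.4 and 248.0 CPM at P28 and at 104.9, 119.8, 79.1 and 71.2 CPM at P0, and rose by 1.30 (edgeR adjusted p = 0.000149, SE 0.208). Procr rose by 0.50 (edgeR adjusted p = 0.0263, SE 0.156), a call lost with RLE factors, plain library totals or no filter (adjusted p = 0.0519, 0.062 and 0.0819), and without P0 ME replicate 3 or 4 or P28 replicate 2 (adjusted p = 0.0803, 0.0595 and 0.07). For both genes all P28 libraries were above all P0 libraries. Groups did not overlap, in either direction, for 25.4% of all genes, and 18.2% of all genes were called. Markers of other cells were lower at P28 here too, with 9 of 9 macrophage, 9 of 9 hepatocyte, 5 of 8 erythroid, 5 of 8 mast cell and basophil and 4 of 5 tested T and B lymphoid genes called. Their part in these differences was not tested.

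Hlf was at 573.0, 322.5, 319.8 and 343.8 CPM in P0 ME and at 520.5, 594.4, 520.6 and 522.4 CPM at P28 (log2 fold change 0.47, SE 0.172, edgeR adjusted p = 0.0577). It was called higher without P0 ME replicate 1, the 1 high library (log2 fold change 0.72, edgeR adjusted p = 0.00177). Slamf1 had a log2 fold change of 0.91 and Ctnnal1 of -0.47, while Fgd5, Pdzk1ip1, Tek and Vwf were within 0.3 of 0. Cdkn1c, a cell cycle inhibitor of quiescent stem cells, was lower at P28 in both wild-type and ME cells, with log2 fold changes of -0.93 and -1.11 (edgeR adjusted p = 0.0017 and 0.000152). Angpt1, the ligand of TIE2, was higher in both, with log2 fold changes of 1.16 and 0.94 (edgeR adjusted p = 0.0141 and 0.0265).

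Ranked by group mean, the genes did not share an order. The RLT Vav Txp group was highest for Procr, Slamf1, Pdzk1ip1 and Vwf and lowest for Hlf and Fgd5. P0 WT was highest for Fgd5, Ctnnal1 and Tek, P28 WT for Ly6a, and P0-induced ME for Hlf. P0 ME was lowest for Procr, Slamf1, Pdzk1ip1, Ly6a and Tek, and P28 WT for Ctnnal1 and Vwf. Most neighbours in these orders overlapped between their libraries. The exceptions were Procr and Pdzk1ip1 between P0-induced and E10.5-induced ME, Pdzk1ip1 between P28 WT and P0 WT, Hlf between P0-induced ME and P28 WT, Fgd5 between P0 WT and P0-induced ME, and Ly6a between P28 WT and E10.5-induced ME.

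Some of the genes varied together over libraries. Procr and Pdzk1ip1 had a Pearson r of 0.92 over the 16 P28 libraries, 0.78 over all 24 and 0.48 after group means were removed, from log2 CPM with a prior count of 2. Tek and Vwf had an r of 0.81 over the 24 libraries and 0.85 within groups, and Ctnnal1 and Tek one of 0.82 within groups. Slamf1 and Hlf had an r of -0.86 over the P28 libraries but 0.23 within groups. These are descriptions over libraries that share groups, and P0 WT replicate 4 is low in Ctnnal1, Tek and Vwf alike.

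**Figure D4:**
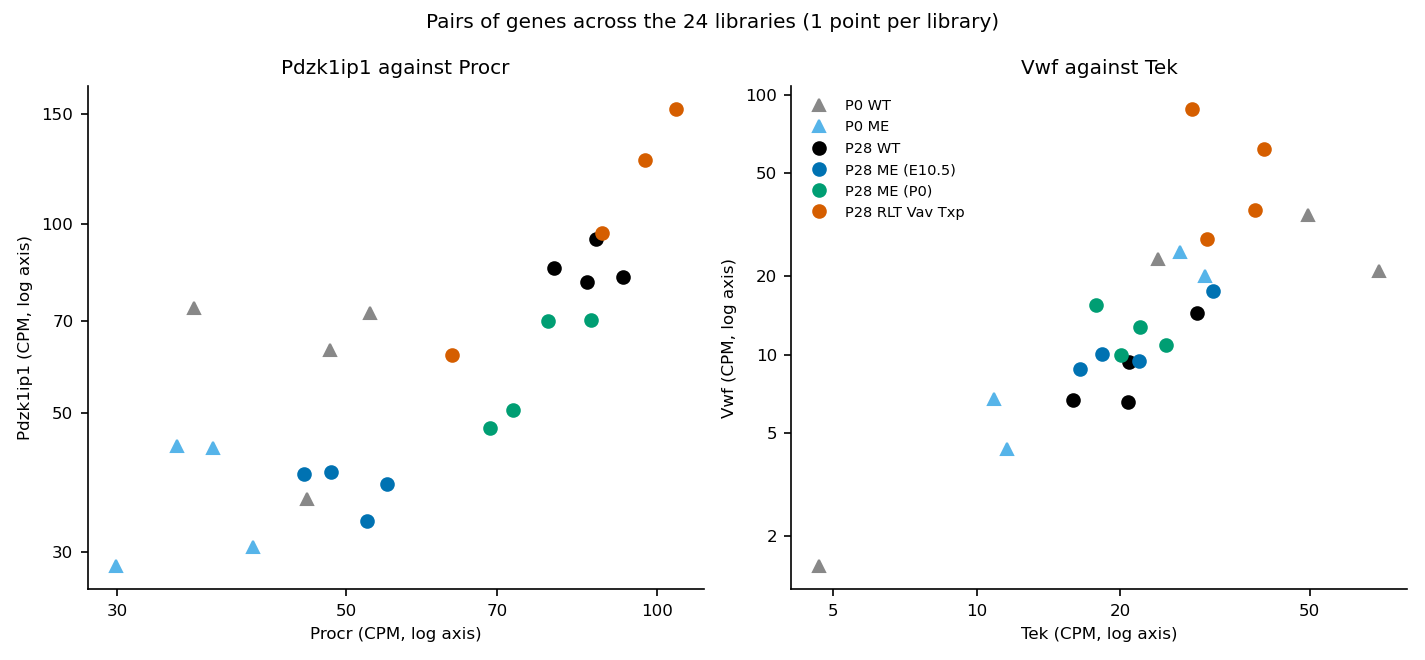
Pdzk1ip1 against Procr and Vwf against Tek (CPM, log axes), 1 point per library, triangles for P0 and circles for P28. The 4 E10.5-induced ME libraries sit below the other P28 libraries in both Procr and Pdzk1ip1, and P0 WT replicate 4 is the lowest point in both Tek and Vwf.

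The genes whose pattern over the 24 libraries was most like each of the 9 were found by Pearson r of log2 CPM among 9486 well-measured genes. For Procr they were Cyp2j6 (r = 0.94), Plaat3 (0.91) and Tbxas1 (0.90), and for Pdzk1ip1 Rhof (0.88), Il11ra1 (0.87) and Lyrm9 (0.85). Hlf was closest to Sox4 (0.94), Zfp608 (0.92) and Cbfa2t3 (0.91). Slamf1 was closest to Gnb4 and Slc35e4 (both 0.78) and Pla2g4a (0.77), and Vwf to F2r (0.83), Mcoln1 (0.79) and Zfp385a (0.78). The list was Fstl1 (0.80), Rtkn (0.79) and St6galnac3 (0.76) for Fgd5, and Gusb (0.88), Adss (0.86) and Acads (0.85) for Ctnnal1. It was P2ry14 (0.88), Blcap (0.88) and Gm2a (0.88) for Ly6a and Gatb (0.84), Ece1 (0.81) and Csf1 (0.81) for Tek. These values are over libraries that share their groups and have no test.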

How the data were processed

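The deposited values were raw read counts per Ensembl gene, 1 table with 24 count columns, which the authors made with tools that the submitters' processing notes name as STAR 2.7.9a, Subread and featureCounts 2.0.3, on GRCm38. The annotation release, strand setting and handling of reads with several matches are not given in the sources used here. Per the labels' protocols, RNA extraction used Qiagen RNeasy Plus and library construction used Clontech SMARTer chemistry. Of 55774 entries, 287 identical repeats of 168 IDs were dropped. GENCODE M21 held 55227 of the 55487 IDs.

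Columns were matched to samples by the library name in the labels, and groups came from the sample titles; the RLT Vav Txp libraries carry no replicate number and were numbered in accession order. Genes were kept with filterByExpr at a minimum count of 10 (23059 genes), with TMM factors. A robust quasi-likelihood fit in edgeR used every library and a mean for each of the 6 groups, leaving 18 residual degrees of freedom. Each of the 9 contrasts got an F-test, and a gene was called where its p, adjusted over all genes tested by Benjamini-Hochberg, was under 0.05. A log2 fold change is given singly where the gene was called or the value was 0.3 or more in size. Before scaling, 1 CPM is 31.2 reads in the library of lowest depth (31233688 counts; the highest had 89774511), and errors are SDs over 4 libraries or SEs from the model.

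The 9 genes, the 12 gene lists and the tests were chosen with earlier results of these data known. All 9 genes were named in every comparison, together with at most 4 called genes of each list with the smallest adjusted p and the 3 genes most alike in pattern (mean log2 CPM of at least 3). Lists are described by counts and medians with no test. For E10.5-induced ME against P28 WT, 1 called gene of a list is left out here. Alternatives were RLE factors, DESeq2, limma (voom, sample weights), no filter, a filter of 10 counts in 12 libraries, only the groups compared, a replicate block in the 20 libraries that carry numbers (and the same libraries unblocked), and each library left out. Plain totals and removal of replicate 1 of both P0 groups were chosen after seeing the data. The procedure was tested on simulated data. Versions were edgeR 4.0.16, DESeq2 1.42.0 and limma 3.58.1 in R 4.3.3, and pandas 2.3.3 and matplotlib 3.10.9 in Python 3.11.15.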

Additional observations from a re-analysis of the deposited data

Results flagged for a closer look

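In 4 of the 54 sets of 4 libraries (9 genes in 6 groups), 1 library stood far from the other 3, by Dixon's test. About 1 in 20 such sets is marked by chance. Slamf1 was at 3.79 CPM in P0-induced ME replicate 4 at P28, against 6.00 to 6.31 CPM in the others. Hlf was at 573.0 CPM in P0 ME replicate 1, against 319.8 to 343.8 CPM in the others, and this library also had the lowest macrophage and erythroid sums of its group. Hlf was also at 594.4 CPM in E10.5-induced ME replicate 2 at P28, against 520.5 to 522.4 CPM. Vwf was at 17.6 CPM in E10.5-induced ME replicate 3 at P28, against 8.85 to 10.0 CPM.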

How the results depend on the processing

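The 61 fold changes given singly kept their sign in all settings run. Of their 1099 recomputed values, 1051 kept their side of the threshold, 18 lost a call and 30 gained one; the cause was not tested. The shares of all genes called that are given above are those of edgeR on all libraries, and shares in other settings are not given. The count of the 9 genes called in E10.5-induced ME against P28 WT was 4 with limma and 4 with only the groups compared. In P0-induced ME against P28 WT it was 3 with limma and 2 with only the groups compared. Between the ME groups induced at P0 and at E10.5 it was 1 with DESeq2, 4 with limma and 3 with only the groups compared. In P28 E10.5-induced ME against P0 ME it was 1 with RLE factors, 1 with plain library totals and 1 with no filter. With each library left out in turn it ran from 1 to 3 there, from 0 to 1 for ME at P0, and from 0 to 1 for the difference between the ME effects. Same-numbered libraries did not deviate together in general. The 40 pairs had r of -0.394 to 0.66, the highest between replicate 1 of P0 WT and of P0 ME, 14 were over 0.1, and 8 of 20 libraries correlated best with their own number. With the replicate block the count in P28 E10.5-induced ME against P0 ME was 3, Hlf being added (log2 fold change 0.51, edgeR adjusted p = 0.0184), and no other count moved by over 1.5 times. The median of all genes in E10.5-induced ME against P28 WT moved from -0.10 with TMM to -0.18 with RLE factors and -0.23 with plain totals. Each of the 9 genes had at least 69 counts in every library.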
